A study of Mus musculus with 9 samples.

Results

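The genes described here are *Nectin2*, *Nectin3*, *Afdn*, *Cadm1*, *Jam3*, *Itga6*, *Itgb1* and *Espn*, whose products hold developing spermatids to Sertoli cells in the mouse testis. They were listed by name from what is known of this junction, with no threshold on their values. They are 8 of the 32035 genes to which the transcripts in the deposited tables could be assigned. For each gene, estimated counts and TPM values (transcript abundance per length, scaled to the same total in every sample) were summed over its transcripts in all 9 samples.

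RNA of whole testes was sequenced in 3 WT samples, 3 *Kpna6* ΔIBB/ΔIBB samples and 3 *Kpna6*-/- samples, all from males of 15 weeks on the C57Bl6/N background. *Kpna6* encodes importin α7, a karyopherin that carries cargo proteins into the nucleus. In the *Kpna6* ΔIBB/ΔIBB line the second exon is deleted, and the shortened mRNA encodes a protein without the importin β binding domain. In the *Kpna6*-/- line a gene trap sits in the first intron, but according to the study germ cells of these testes still make an mRNA for the full-length protein from another first exon downstream of the trap, so this line is no model of *Kpna6* loss in germ cells.

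Elongating spermatids are anchored by the apical ectoplasmic specialization, a junction of the testis in which the Sertoli cell lays bundles of actin filaments under its membrane. Nectin2 of the Sertoli cell binds Nectin3 of the spermatid, while the integrin subunits Itga6 and Itgb1 form a receptor for laminin. Afadin (*Afdn*) ties nectins to actin, and espin (*Espn*) cross-links the actin filaments into bundles.

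*Kpna6*, on chromosome 4 of GRCm38, had 201.5, 324.9 and 332.3 CPM (gene counts relative to the library's TMM-scaled total) in the 3 WT testes. It had 81.07, 85.48 and 81.89 CPM in *Kpna6* ΔIBB/ΔIBB and 246.7, 248.9 and 261.3 CPM in *Kpna6*-/- testes. All *Kpna6* ΔIBB/ΔIBB testes lay below all others, whereas the *Kpna6*-/- testes lay within the WT range, and WT replicate 1 stood apart from the other 2 WT testes. The log2 fold change was -1.79 (SE 0.15, adjusted p = 1.94e-05 by edgeR) in *Kpna6* ΔIBB/ΔIBB against WT and -0.18 (SE 0.14, adjusted p = 0.586 by edgeR) in *Kpna6*-/- against WT. Without WT replicate 1 the latter was -0.38 and passed the test (adjusted p = 0.000345 by edgeR), while the number of adhesion genes that passed the test stayed at 5 and 0 in the comparisons with WT. Between 24859751 and 31484692 estimated counts fell on genes in a sample, and each group held 3 samples. How much of the spread between samples came from counting was not tested.

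The 8 genes were all expressed, at levels that spanned a wide range. In WT testes the mean level was 317.1 TPM for *Nectin3*, 67.32 TPM for *Cadm1*, 58.58 TPM for *Espn* and 40.16 TPM for *Nectin2*. It was 30.87 TPM for *Afdn*, 26.83 TPM for *Jam3*, 21.46 TPM for *Itga6* and 18.6 TPM for *Itgb1*. *Nectin3* thus had a higher level than 97.9% of the genes with a TPM above 0 in WT testes, and *Itgb1* than 73.3%. The WT samples of neighbours in this order did not overlap, except for *Jam3* (25.98 to 28.18 TPM) and *Itga6* (18.37 to 27.27 TPM), and for *Itga6* and *Itgb1* (17.04 to 19.44 TPM). In *Kpna6* ΔIBB/ΔIBB testes *Espn* stood at 104.4 to 114.8 TPM, above *Cadm1* with 70.21 to 75.87 TPM. *Itga6* stood at 35.34 to 37.75 TPM there, and overlapped with *Afdn* (30.74 to 36.78 TPM). The levels above sum coding and noncoding transcripts. In WT testes, noncoding transcripts of *Afdn* made up 23.2%, 14.5% and 12.5% of its TPM, and a coding transcript 13.7%. A noncoding transcript of 737 bases made up 33.0% of the TPM of *Nectin3*, and another of 443 bases 68.3% of that of *Itga6*. A coding transcript made up 86.6% for *Jam3* and 98.8% for *Itgb1*. The order by coding transcripts alone was not tested.

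**Figure D1:**
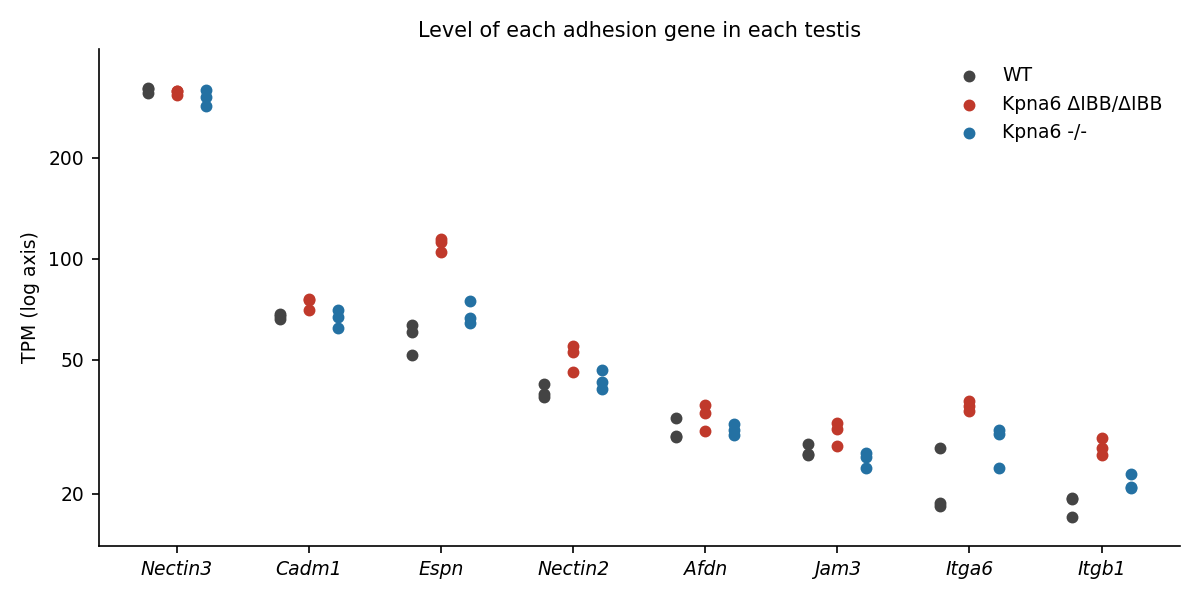
TPM of each of the 8 genes (horizontal axis, in the order of the WT mean) in each of the 9 testes (points, coloured by genotype), on a log axis. *Nectin3* sits between 283.9 and 321.5 TPM in every genotype, while *Espn* of the *Kpna6* ΔIBB/ΔIBB testes (104.4 to 114.8 TPM) lies above that of all other testes (51.55 to 74.86 TPM).

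The first comparison asked how the testes of the sterile *Kpna6* ΔIBB/ΔIBB mice differed from WT. The actin bundler *Espn* and both integrin subunits rose by 36.0% to 69.7%, and *Nectin2* rose by 17.8%. *Nectin3* fell by 9.7%, a call that depended on the scaling, and *Afdn*, *Cadm1* and *Jam3* did not pass the test. By edgeR's quasi-likelihood test with Benjamini-Hochberg adjustment over all 18797 genes tested, 4 of the 8 genes were thus higher and 1 was lower at an adjusted p below 0.05. Of all genes tested, 36.6% passed, 17.7% higher and 18.9% lower. The values of *Kpna6* ΔIBB/ΔIBB and WT did not overlap for 5 of the 8 genes, against 49.9% of all genes tested. The median log2 fold change of the 8 genes was 0.15, and that of all genes was 0.01. In RNA of whole testes, fewer cells of a type and less RNA per cell cannot be told apart.

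These calls rest on TMM scaling, which sets the typical gene at no change. With counts scaled by library size alone the median of all genes moved to 0.107 in this comparison and to 0.105 in *Kpna6* ΔIBB/ΔIBB against *Kpna6*-/-. The genes called in the first comparison were then 5416 higher and 2326 lower in place of 3327 higher and 3547 lower, and of the 8 adhesion genes 5 were higher and 0 lower. Between the mutant lines they were 4931 higher and 2016 lower in place of 2523 higher and 3150 lower, and of the 8 adhesion genes 6 were higher and 0 lower. Changes are given relative to the TMM scale below.

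**Figure D2:**
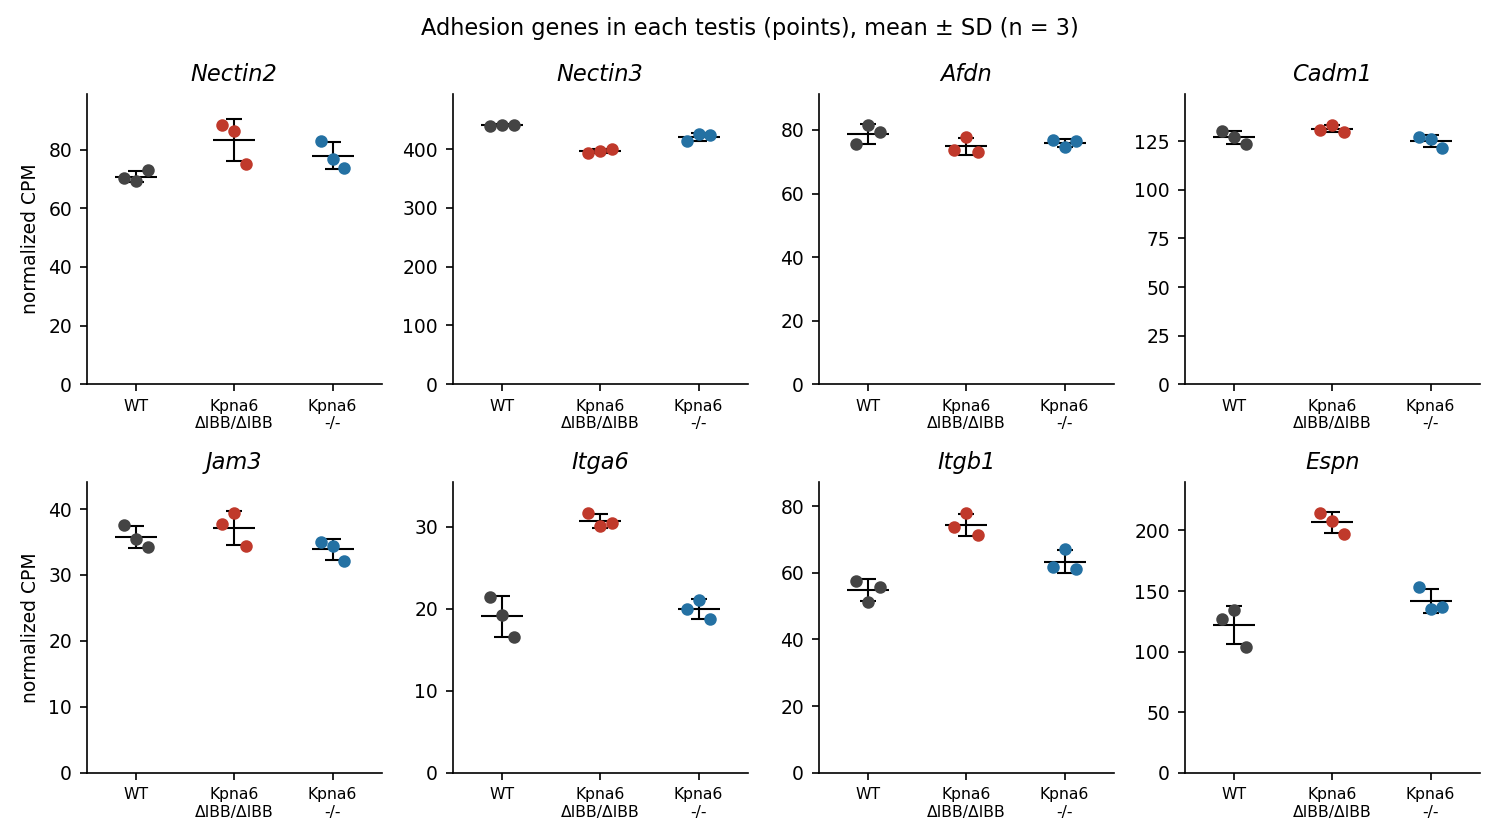
Normalized CPM (vertical axis, from 0) of each gene in each testis (points) of the 3 genotypes (horizontal axis), with the mean and SD of 3 samples in black. The *Kpna6* ΔIBB/ΔIBB values of *Itga6*, *Itgb1* and *Espn* lie above all others, and those of *Nectin3* (394.0 to 400.6 CPM) lie below all others.

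*Nectin2*, the nectin of the Sertoli cell, lies on the minus strand of chromosome 7 (GRCm38, 19716644 to 19750483). It had 70.18, 69.23 and 73.05 CPM in WT, 88.52, 86.39 and 74.96 CPM in *Kpna6* ΔIBB/ΔIBB and 82.94, 76.85 and 73.88 CPM in *Kpna6*-/- testes. Each mutant testis was above each WT testis, and the mutant lines overlapped with each other. Against WT, the log2 fold change in *Kpna6* ΔIBB/ΔIBB testes was 0.24 (SE 0.06, 95% CI 0.1 to 0.38, adjusted p = 0.0144 by edgeR). This call was lost without WT replicate 2 (0.21, adjusted p = 0.0543), *Kpna6* ΔIBB/ΔIBB replicate 1 (0.19, adjusted p = 0.0664) or *Kpna6* ΔIBB/ΔIBB replicate 2 (0.21, adjusted p = 0.0618).

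*Nectin2* is measured as transcripts with different ends of the coding sequence, and the place where they part is shown because reads beyond it tell the isoforms apart. The lower-case bases are the last shared coding bases, which end at position 19730038, and the capitals are the first coding bases of that transcript alone, read on the minus strand of chromosome 7 in the GENCODE M21 transcripts.
Nectin2-201: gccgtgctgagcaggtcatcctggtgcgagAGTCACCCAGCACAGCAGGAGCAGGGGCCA
Nectin2-202: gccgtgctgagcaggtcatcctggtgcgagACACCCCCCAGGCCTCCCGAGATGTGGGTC
Nectin2-201, with 1590 coding bases, had 22.5 ± 1.66 TPM in WT and 29.7 ± 3.12 TPM in *Kpna6* ΔIBB/ΔIBB testes (SD, n = 3). Nectin2-202, with 1401 coding bases, had 17.5 ± 1.69 and 21.3 ± 2.35 TPM. Neither transcript passed the test on its own (log2 fold changes 0.3 and 0.17, adjusted p = 0.0781 and 0.359 by edgeR over all transcripts). The share of Nectin2-201 in the gene's TPM was 56.0% in WT and 58.1% in *Kpna6* ΔIBB/ΔIBB testes (two-sided exact permutation test, p = 0.4).

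*Nectin3*, the partner on the spermatid, lies on the minus strand of chromosome 16 (46387706 to 46498525). It had 439.3, 441.6 and 441.4 CPM in WT, 394.0, 396.5 and 400.6 CPM in *Kpna6* ΔIBB/ΔIBB and 413.3, 425.0 and 424.6 CPM in *Kpna6*-/- testes. The 3 genotypes did not overlap, with WT highest and *Kpna6* ΔIBB/ΔIBB lowest. The log2 fold change of *Kpna6* ΔIBB/ΔIBB against WT was -0.15 (SE 0.03, 95% CI -0.22 to -0.08, adjusted p = 0.00428 by edgeR). With library size scaling it was -0.05 (adjusted p = 0.204). With limma on log2(TPM + 1) it was -0.02 (adjusted p = 0.659), so the call held on the TMM scale and was lost on these. In TPM the genotypes overlapped, with a mean of 317.1 for WT, 312.3 for *Kpna6* ΔIBB/ΔIBB and 301.6 for *Kpna6*-/- testes.

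The ratio of the nectins within a sample does not depend on how samples are scaled to each other. The log2 ratio of *Nectin2* to *Nectin3* counts was -2.65, -2.67 and -2.6 for WT, -2.15, -2.2 and -2.42 for *Kpna6* ΔIBB/ΔIBB and -2.32, -2.47 and -2.52 for *Kpna6*-/- testes. Every mutant testis had a higher ratio than every WT testis. The mean difference from WT was 0.38 for *Kpna6* ΔIBB/ΔIBB and 0.2 for *Kpna6*-/- testes (two-sided exact permutation tests, p = 0.1 each, the smallest that 3 against 3 samples allow). The mutant lines differed by 0.18 (two-sided exact permutation test, p = 0.2).

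The RefSeq promoter table used here matched 5 of the 8 genes, *Afdn*, *Espn*, *Itgb1*, *Nectin2* and *Nectin3*, and the windows of both nectins are shown because these genes moved in opposite directions on the TMM scale. Each run is the 250 bases before the RefSeq start on the gene's own strand (GRCm38.p6), at chr7:19749574-19749823 on the minus strand for *Nectin2* and at chr16:46496968-46497217 on the minus strand for *Nectin3*. Capitals mark GC boxes, the letters GGGCGG or, on the other strand, CCGCCC.
Nectin2 promoter: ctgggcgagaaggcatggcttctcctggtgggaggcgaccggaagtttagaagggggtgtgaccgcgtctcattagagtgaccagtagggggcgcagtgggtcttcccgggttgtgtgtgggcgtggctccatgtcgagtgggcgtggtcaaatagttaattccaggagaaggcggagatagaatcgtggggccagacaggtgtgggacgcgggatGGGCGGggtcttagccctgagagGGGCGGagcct
Nectin3 promoter: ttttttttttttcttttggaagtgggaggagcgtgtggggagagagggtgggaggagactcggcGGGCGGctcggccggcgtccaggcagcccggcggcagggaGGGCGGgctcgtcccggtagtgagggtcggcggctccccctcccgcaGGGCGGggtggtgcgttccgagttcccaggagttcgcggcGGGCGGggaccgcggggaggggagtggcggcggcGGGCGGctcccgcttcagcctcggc
The *Nectin2* window holds 2 GC boxes and the *Nectin3* window holds 5, and their GC contents are 62.0% and 73.2%. Of all 32817 RefSeq promoter windows of this length, 32.7% hold a GC box, and the median GC content is 52.4%. Neither window holds a CCAAT box (CCAAT, in 33.8% of all windows), a TATA box (TATAAA, 12.4%) or a cAMP response element (TGACGTCA, 1.55%). Neither holds AGAACA (16.1%), which is only a part of the androgen receptor motif. Each was sought on both strands. These are matches of letters, and binding was not measured here. *Afdn* had 4 GC boxes in a window of 82.8% GC.

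*Afdn* (plus strand of chromosome 17, 13760539 to 13906150) encodes afadin, the scaffold that binds nectin tails and actin. It had 75.49, 81.66 and 79.4 CPM in WT, 73.61, 77.85 and 72.98 CPM in *Kpna6* ΔIBB/ΔIBB and 76.68, 74.54 and 76.5 CPM in *Kpna6*-/- testes. All 3 genotypes overlapped. The log2 fold change of *Kpna6* ΔIBB/ΔIBB against WT was -0.07 (95% CI -0.18 to 0.04, adjusted p = 0.288 by edgeR), and its sign turned with the scaling. Its exons share 221 bases (2.2% of its exonic bases) with *Tcte2* on the opposite strand.

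*Cadm1* (plus strand of chromosome 9, 47530173 to 47857637) encodes an adhesion molecule of the immunoglobulin superfamily that germ cells carry. It had 130.4, 126.9 and 123.6 CPM in WT, 130.7, 133.5 and 129.9 CPM in *Kpna6* ΔIBB/ΔIBB and 127.1, 126.2 and 121.3 CPM in *Kpna6*-/- testes. For *Kpna6* ΔIBB/ΔIBB against WT the log2 fold change was 0.05 (95% CI -0.04 to 0.14, adjusted p = 0.336 by edgeR), an interval that leaves room for no more than a small change in either direction. With library size scaling it was 0.15 (adjusted p = 0.0109), which is near the shift of all genes on that scale.

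*Jam3* (minus strand of chromosome 9, 27097384 to 27155421) encodes JAM-C, a junctional adhesion molecule of spermatids that binds Jam2. It had 37.63, 35.47 and 34.22 CPM in WT, 37.8, 39.38 and 34.36 CPM in *Kpna6* ΔIBB/ΔIBB and 35.08, 34.43 and 32.15 CPM in *Kpna6*-/- testes. The genotypes overlapped, and the log2 fold change of *Kpna6* ΔIBB/ΔIBB against WT was 0.06 (95% CI -0.08 to 0.2, adjusted p = 0.517 by edgeR). An annotated gene on the opposite strand, *Gm48796*, shares 1159 bases or 36.2% of the exonic bases of *Jam3*. The protocol names no step that keeps the strand, so reads of such a pair cannot be told apart.

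The integrin subunits rose in *Kpna6* ΔIBB/ΔIBB testes. *Itga6* (plus strand of chromosome 2, 71745616 to 71858416), the alpha subunit of a laminin receptor, had 21.48, 19.25 and 16.53 CPM in WT, 31.68, 30.09 and 30.42 CPM in *Kpna6* ΔIBB/ΔIBB and 20.04, 21.11 and 18.73 CPM in *Kpna6*-/- testes. The 3 *Kpna6* ΔIBB/ΔIBB testes were well above the other 6, which overlapped. The log2 fold change against WT was 0.69 (SE 0.09, 95% CI 0.5 to 0.88, adjusted p = 0.000149 by edgeR), or 61.2% more. It lay between 0.6 and 0.79 in the 17 alternatives tried and passed the test in each of them.

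*Itgb1* (plus strand of chromosome 8, 128685654 to 128733200), the beta subunit shared by many integrins, had 57.52, 51.2 and 55.69 CPM in WT testes. It had 73.84, 77.92 and 71.24 CPM in *Kpna6* ΔIBB/ΔIBB and 61.85, 67.3 and 61.01 CPM in *Kpna6*-/- testes. The genotypes did not overlap, and *Kpna6*-/- lay between the others. The log2 fold change of *Kpna6* ΔIBB/ΔIBB against WT was 0.44 (SE 0.06, 95% CI 0.32 to 0.57, adjusted p = 0.000187 by edgeR), and it passed the test in all 17 alternatives. The promoter window of *Itgb1* is shown beside those of *Espn* below, since both genes rose.

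The ratio of the integrin subunits was compared within each sample. The log2 ratio of *Itga6* to *Itgb1* counts was -1.42, -1.41 and -1.75 in WT and -1.22, -1.37 and -1.23 in *Kpna6* ΔIBB/ΔIBB testes, a mean difference of 0.25 with no overlap (two-sided exact permutation test, p = 0.1, the smallest possible). In *Kpna6*-/- testes it was -1.63, -1.67 and -1.7, within the WT range (p = 0.4, same exact test).

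*Espn* (minus strand of chromosome 4, 152120331 to 152152371) encodes espin, the actin-bundling protein of the ectoplasmic specialization, and showed the largest change of the 8 genes in *Kpna6* ΔIBB/ΔIBB against WT. It had 127.2, 134.7 and 104.2 CPM in WT, 214.3, 208.1 and 197.4 CPM in *Kpna6* ΔIBB/ΔIBB and 153.4, 135.1 and 136.9 CPM in *Kpna6*-/- testes. The lowest *Kpna6* ΔIBB/ΔIBB testis was above the highest other testis, and the *Kpna6*-/- testes lay just above the WT testes. Against WT its log2 fold change in *Kpna6* ΔIBB/ΔIBB testes was 0.76 (SE 0.08, 95% CI 0.59 to 0.93, adjusted p = 4.63e-05 by edgeR), or 69.7% more. It lay between 0.66 and 0.92 in all 17 alternatives and passed the test in each.

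**Figure D3:**
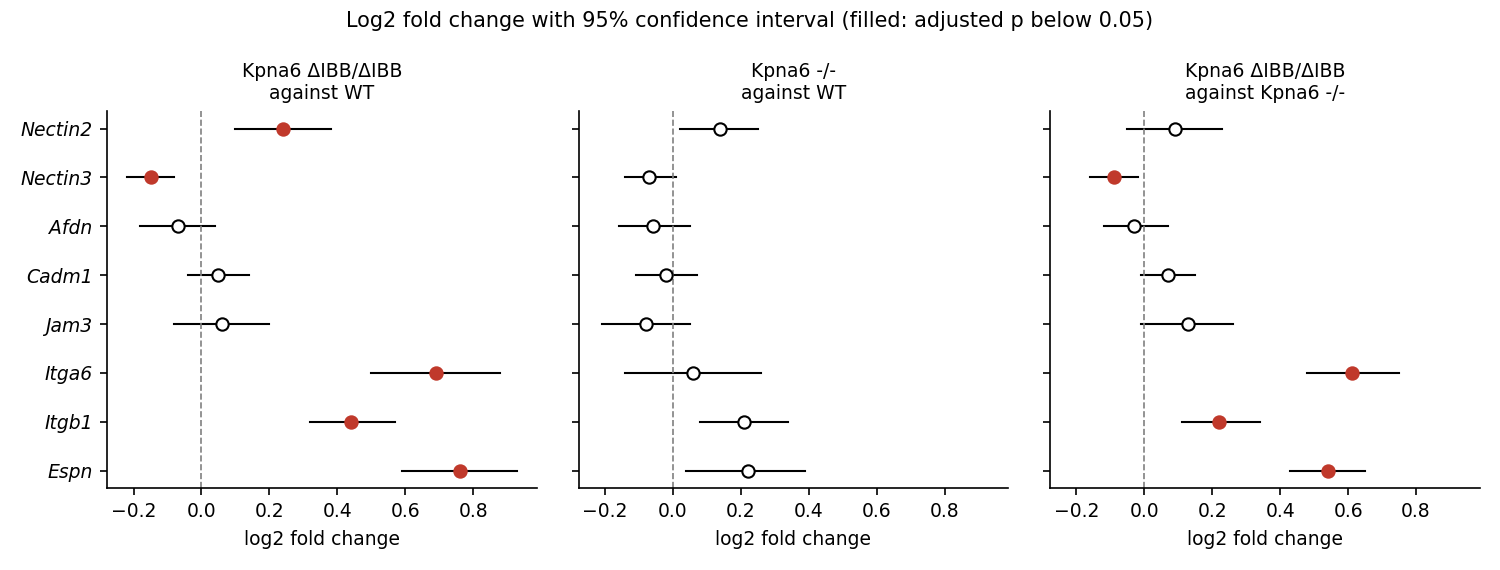
Log2 fold change (horizontal axis) of each gene with its 95% confidence interval (lines) in the 3 comparisons, with filled points where the adjusted p was below 0.05. *Espn*, *Itga6* and *Itgb1* are filled on the right in both comparisons of *Kpna6* ΔIBB/ΔIBB testes (0.22 to 0.76), and no point is filled for *Kpna6*-/- against WT.

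RefSeq lists 3 start sites of *Espn*, and their windows are shown because annotated transcripts are grouped by them below. The windows lie on the minus strand at chr4:152152390-152152639 (upstream), chr4:152136326-152136575 (middle) and chr4:152128926-152129175 (downstream). That of *Itgb1* lies on the plus strand at chr8:128685404-128685653. Capitals again mark GC boxes.
Espn upstream promoter: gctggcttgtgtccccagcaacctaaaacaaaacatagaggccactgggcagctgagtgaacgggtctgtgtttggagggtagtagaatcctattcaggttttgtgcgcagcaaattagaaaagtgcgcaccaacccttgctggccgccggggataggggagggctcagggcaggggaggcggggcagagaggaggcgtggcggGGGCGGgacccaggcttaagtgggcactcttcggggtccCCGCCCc
Espn middle promoter: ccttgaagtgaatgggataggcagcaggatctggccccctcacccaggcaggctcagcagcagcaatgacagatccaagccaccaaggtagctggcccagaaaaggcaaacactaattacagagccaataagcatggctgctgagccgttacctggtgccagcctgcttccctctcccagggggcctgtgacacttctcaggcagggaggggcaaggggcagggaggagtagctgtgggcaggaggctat
Espn downstream promoter: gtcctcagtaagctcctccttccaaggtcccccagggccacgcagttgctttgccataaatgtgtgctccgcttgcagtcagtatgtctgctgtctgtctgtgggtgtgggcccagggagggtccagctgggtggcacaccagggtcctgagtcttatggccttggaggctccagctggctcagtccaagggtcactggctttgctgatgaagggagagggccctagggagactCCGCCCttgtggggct
Itgb1 promoter: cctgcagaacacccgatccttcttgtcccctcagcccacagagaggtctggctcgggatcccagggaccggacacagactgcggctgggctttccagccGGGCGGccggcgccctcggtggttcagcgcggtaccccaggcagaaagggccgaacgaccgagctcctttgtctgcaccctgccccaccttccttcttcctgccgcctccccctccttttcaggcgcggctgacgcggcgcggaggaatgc
The upstream window of *Espn* holds 2 GC boxes, the middle window none and the downstream window 1, and the middle window holds 1 CCAAT box. The *Itgb1* window holds 1 GC box and 1 match to AGAACA, which is only a part of the androgen receptor motif. None of the 4 windows holds a TATA box or a cAMP response element in the letters sought.

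Start sites were not measured, so estimated TPM was summed over the annotated transcripts near each RefSeq start. Assigning reads to transcripts carries an uncertainty that the deposited values do not give. In these estimates *Espn* was higher in *Kpna6* ΔIBB/ΔIBB than in WT testes at each start site. Within 300 bases of the upstream start, 4 transcripts together had 33.4 ± 3.65 TPM in WT and 62.1 ± 3.27 TPM in *Kpna6* ΔIBB/ΔIBB testes (SD, n = 3), a ratio of 1.86. The 8 transcripts of the middle start had 3.37 ± 0.413 and 8.18 ± 0.949 TPM, a ratio of 2.42. The 1 transcript of the downstream start, Espn-202, had 7.5 ± 0.702 and 15.4 ± 2.14 TPM, a ratio of 2.05. For the 7 other transcripts the ratio was 1.74. The groups did not overlap at any of these sites (two-sided exact permutation tests, p = 0.1 each, the smallest possible). Transcripts of the upstream start were assigned 57.0% of the gene's TPM in WT and 56.2% in *Kpna6* ΔIBB/ΔIBB testes, most of it in both.

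Over the 8 genes, 24 transcripts reached a mean share of 10% of their gene's TPM in a genotype. The tests below leave out the uncertainty of assigning reads to them. In *Kpna6* ΔIBB/ΔIBB against WT, 7 of them were higher and 1 was lower (edgeR, adjusted over all 47090 transcripts tested), against 3.93% higher and 5.8% lower among all transcripts. The 7 were Itga6-201, Itga6-203, Itgb1-201 and all 4 described *Espn* transcripts, and the 1 was Nectin3-201. All belong to genes that passed at the gene level, so they are not separate results. At that level 17.7% of all genes were higher and 18.9% lower. The 24 were taken for their share of a gene's TPM and all transcripts were not, so these sets are not alike. Itgb1-201 (log2 fold change 0.47, adjusted p = 0.00677), Espn-201 (0.7, adjusted p = 0.00544) and Espn-213 (0.93, adjusted p = 0.00498) passed the test with each library left out in turn. The others did not. Nectin3-201 (-0.14, adjusted p = 0.0436) lost its call without any of the 6 libraries, Itga6-203 (0.72, adjusted p = 0.0247) without 5 of them, and Espn-218 (0.52, adjusted p = 0.0253) without 4. Itga6-201 (0.64, adjusted p = 0.016) and Espn-202 (0.92, adjusted p = 0.0124) lost it without *Kpna6* ΔIBB/ΔIBB replicate 1 or 2, and the highest adjusted p over these transcripts with a library left out was 0.12. Without either of these replicates 3 transcripts passed.

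Isoform shares within *Espn* differed by a few percent of the gene's TPM. Espn-201 made up 33.3% of the gene's TPM in WT and 30.9% in *Kpna6* ΔIBB/ΔIBB testes, Espn-213 made up 20.4% and 22.3%, and the noncoding Espn-218 made up 16.3% and 13.4%. These shares did not overlap between the groups (two-sided exact permutation tests, p = 0.1 each, the smallest possible). Almost all of *Itgb1* was Itgb1-201 (98.8% of its TPM in WT). Itga6-205, a noncoding transcript of 443 bases, made up 68.3% of the TPM of *Itga6* but 10.9% of its counts in WT testes, so the TPM of *Itga6* mostly follows a short transcript with few counts. Its own log2 fold change was 0.64 (adjusted p = 0.157 by edgeR). *Itga6* also shares 326 identical bases with *Gm29397* and 270 bases of 95.9% identity with *Gm8113*, so reads could be split between them.

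**Figure D4:**
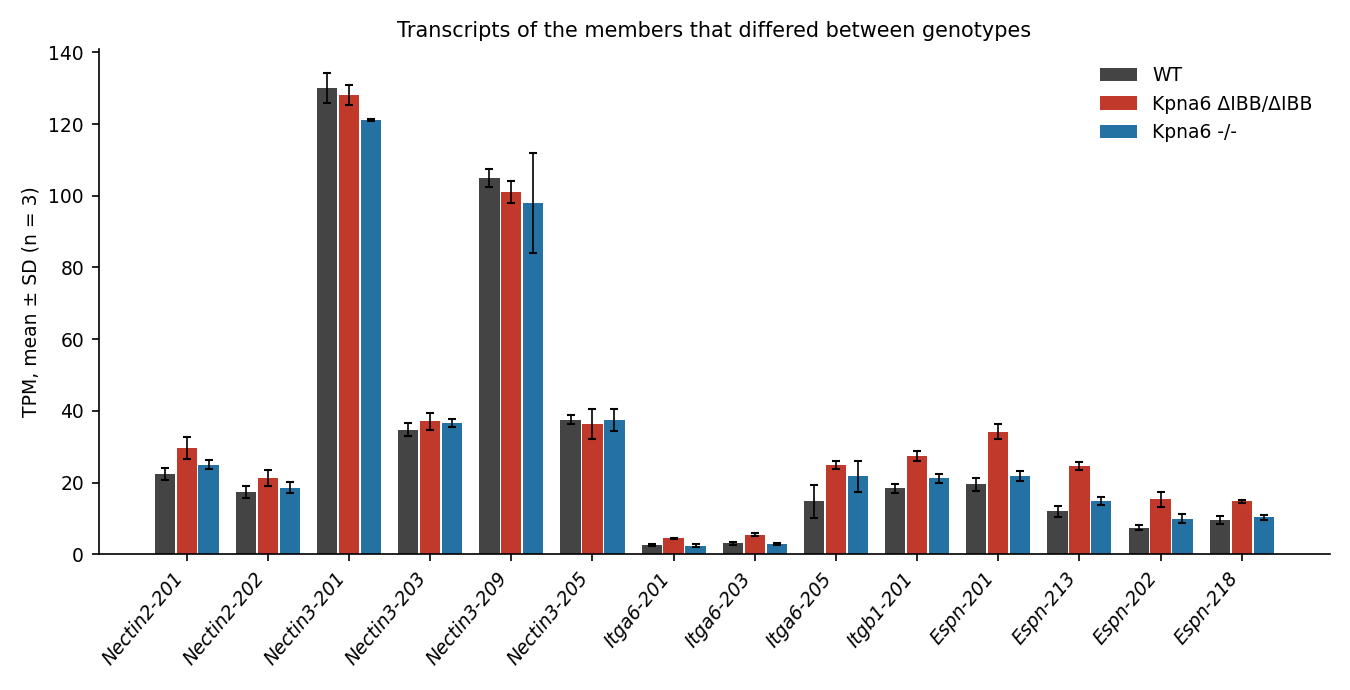
Mean TPM (bars from 0) with SD of 3 samples for the described transcripts of the genes that passed a test, by genotype. The 4 *Espn* transcripts and Itgb1-201 are tallest in the *Kpna6* ΔIBB/ΔIBB testes, while Nectin3-201 has 130.0, 128.0 and 121.0 TPM in WT, *Kpna6* ΔIBB/ΔIBB and *Kpna6*-/- testes.

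The second comparison asked how the testes of the fertile *Kpna6*-/- line differed from WT. None of the 8 genes passed edgeR's test, in which 1.6% of 18681 genes did, and DESeq2 called 0 of them as well. At an unadjusted p below 0.05 there were 3, *Itgb1* (log2 fold change 0.21, 95% CI 0.08 to 0.34, adjusted p = 0.098), *Espn* (0.22, 95% CI 0.04 to 0.39, adjusted p = 0.229) and *Nectin2* (0.14, 95% CI 0.02 to 0.25, adjusted p = 0.245). The values of *Kpna6*-/- and WT did not overlap for these genes and for *Nectin3* (-0.07, adjusted p = 0.381), 4 of the 8 genes, against 19.9% of all genes. For the other 4 genes the log2 fold changes lay between -0.08 and 0.06. The median of the 8 genes was 0.02, and that of all genes was 0.0. None of the 24 transcripts passed (0.0561% of all transcripts did), 5 had an unadjusted p below 0.05 and DESeq2 called 0.

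The third comparison set the mutant lines against each other and so tested the difference between them directly. *Espn* (log2 fold change 0.54, SE 0.05, 95% CI 0.43 to 0.65, adjusted p = 1.57e-05 by edgeR), *Itga6* (0.61, SE 0.06, 95% CI 0.48 to 0.75, adjusted p = 2.16e-05) and *Itgb1* (0.22, SE 0.05, 95% CI 0.11 to 0.34, adjusted p = 0.0066) were higher in the *Kpna6* ΔIBB/ΔIBB line. *Nectin3* was lower (-0.09, 95% CI -0.16 to -0.02, adjusted p = 0.0427). The other 4 genes did not pass, with *Nectin2* at 0.09 (95% CI -0.05 to 0.23), *Jam3* at 0.13 (-0.01 to 0.26), *Cadm1* at 0.07 (-0.01 to 0.15) and *Afdn* at -0.03 (-0.12 to 0.07). Thus 3 of the 8 genes were higher and 1 was lower, against 13.5% and 16.8% of all 18752 genes tested (30.3% in either direction), and 5 of the 8 did not overlap, against 44.5% of all genes. The median of the 8 genes was 0.11 and that of all genes 0.0.

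Some of these calls did not hold in every setting. That of *Nectin3* was lost when *Kpna6*-/- replicate 2 (adjusted p = 0.132), *Kpna6*-/- replicate 3 (0.124), or *Kpna6* ΔIBB/ΔIBB replicate 1 (0.0974), 2 (0.11) or 3 (0.0608) was left out, and its sign turned with library size scaling (0.01). *Itga6* was called in every alternative but one, in which counts were rebuilt from TPM and transcript length (0.24, adjusted p = 0.13). Without *Kpna6* ΔIBB/ΔIBB replicate 3, *Jam3* (0.19, adjusted p = 0.0311) and *Nectin2* (0.16, adjusted p = 0.0318) passed as higher. Of the 24 transcripts, 6 were higher, against 2.41% of all transcripts, namely Itga6-201 (log2 fold change 0.74, adjusted p = 0.0141), Itga6-203 (0.78, adjusted p = 0.00848), Itgb1-201 (0.24, adjusted p = 0.0427), Espn-201 (0.53, adjusted p = 0.0045), Espn-213 (0.6, adjusted p = 0.00337) and Espn-218 (0.4, adjusted p = 0.0206). These transcripts too belong to genes that passed at the gene level, and the 24 are not a set like all transcripts. Itgb1-201 lost its call without any 1 of the 6 libraries (highest adjusted p = 0.146 by edgeR). With a library left out, Itga6-203, Espn-201 and Espn-213 always passed, and without *Kpna6* ΔIBB/ΔIBB replicate 1 or 2 the number of transcripts called was 3.

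The comparisons share samples, so their values are best read side by side. Relative to WT, *Espn* was 69.7% higher in *Kpna6* ΔIBB/ΔIBB and 16.1% higher in *Kpna6*-/- testes, where it did not pass the test. *Itgb1* was 36.0% and 15.7% higher in the same order, again without passing in *Kpna6*-/-. *Itga6* was 61.2% higher in *Kpna6* ΔIBB/ΔIBB and 4.5% higher in *Kpna6*-/- testes, where it did not pass. On the TPM scale the latter was larger, with a mean of 28.27 TPM against 21.46 TPM in WT and a log2 fold change of 0.4 by limma on log2(TPM + 1) (adjusted p = 0.412).

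Cell type markers also differed between *Kpna6* ΔIBB/ΔIBB and WT testes. All 12 Sertoli cell markers were higher than in WT, against 17.7% of all genes, with a median log2 fold change of 0.68. Their summed level was 1110 to 1320 CPM against 729 to 814 CPM in WT and 898 to 936 CPM in *Kpna6*-/- testes. *Sox9* (0.5), *Wt1* (0.52) and *Cldn11* (0.56), a pair of transcription factors and a tight junction protein of Sertoli cells, were among them. By quantitative PCR of adult testes relative to *Gapdh*, the study found no significant difference for *Wt1* and *Cldn11*. It also counted fewer Sertoli cells per tubule in adults of both mutant lines. Cells per tubule and CPM are unlike measures, and the reason for the difference was not tested. Beside the marker median of 0.68, *Espn* stood at 0.76, *Itga6* at 0.69, *Itgb1* at 0.44 and *Nectin2* at 0.24. The remaining adhesion genes stood at 0.06 (*Jam3*), 0.05 (*Cadm1*), -0.07 (*Afdn*) and -0.15 (*Nectin3*). In *Kpna6*-/- against WT, 3 of the 12 Sertoli cell markers were higher, with a median of 0.26, where 1.6% of all genes passed in either direction. In *Kpna6* ΔIBB/ΔIBB against *Kpna6*-/- all 12 were higher, against 13.5% of all genes, with a median of 0.42.

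Markers of spermatids, the cells on the other side of the junction, went the other way. All 10 round spermatid markers were lower in *Kpna6* ΔIBB/ΔIBB than in WT testes (median -0.53, 1570 to 1700 against 2060 to 2140 CPM in sum), with *Acrv1* at -0.58, *Spaca1* at -0.44 and *Spaca7* at -0.48. Of all genes, 18.9% were lower in this comparison. All 10 elongating spermatid markers were lower too (median -0.37, 17900 to 19700 against 22500 to 24900 CPM), with *Tnp1* at -0.59, *Tnp2* at -0.26 and *Prm1* at -0.36. *Tnp2* lost its call with library size scaling (-0.16, adjusted p = 0.0591 by edgeR). With limma on log2(TPM + 1), *Tnp2* (-0.14, adjusted p = 0.204) and *Prm1* (-0.23, adjusted p = 0.138) lost theirs. In *Kpna6*-/- against WT none of either list passed (edgeR), while 4 round and 0 elongating spermatid markers had an unadjusted p below 0.05. *Nectin3* and *Jam3*, which spermatids carry, changed by -0.15 and 0.06 in *Kpna6* ΔIBB/ΔIBB against WT testes.

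The remaining marker lists were counted in the same way, beside 17.7% of all genes higher and 18.9% lower in *Kpna6* ΔIBB/ΔIBB against WT. In *Kpna6* ΔIBB/ΔIBB against WT, 3 of 10 spermatogonium markers were higher and 1 lower (median 0.24), 0 of 10 pachytene markers were higher and 1 lower (-0.03), and 3 of 8 Leydig cell markers were higher (0.12). Of 10 peritubular and endothelial markers 4 were higher and 2 lower (0.28), and their sum was 186 to 205 CPM against 163 to 166 CPM. The 4 were all markers of peritubular cells and the 2 were endothelial markers, so the higher sum does not describe the endothelial ones. Of 10 macrophage markers 4 were higher and 0 lower (0.46), and their sum was 121 to 136 CPM against 85.1 to 113 CPM. No marker of any list was at 0 in a sample. The part of cell composition in the results for the 8 genes was not tested.

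**Figure D5:**
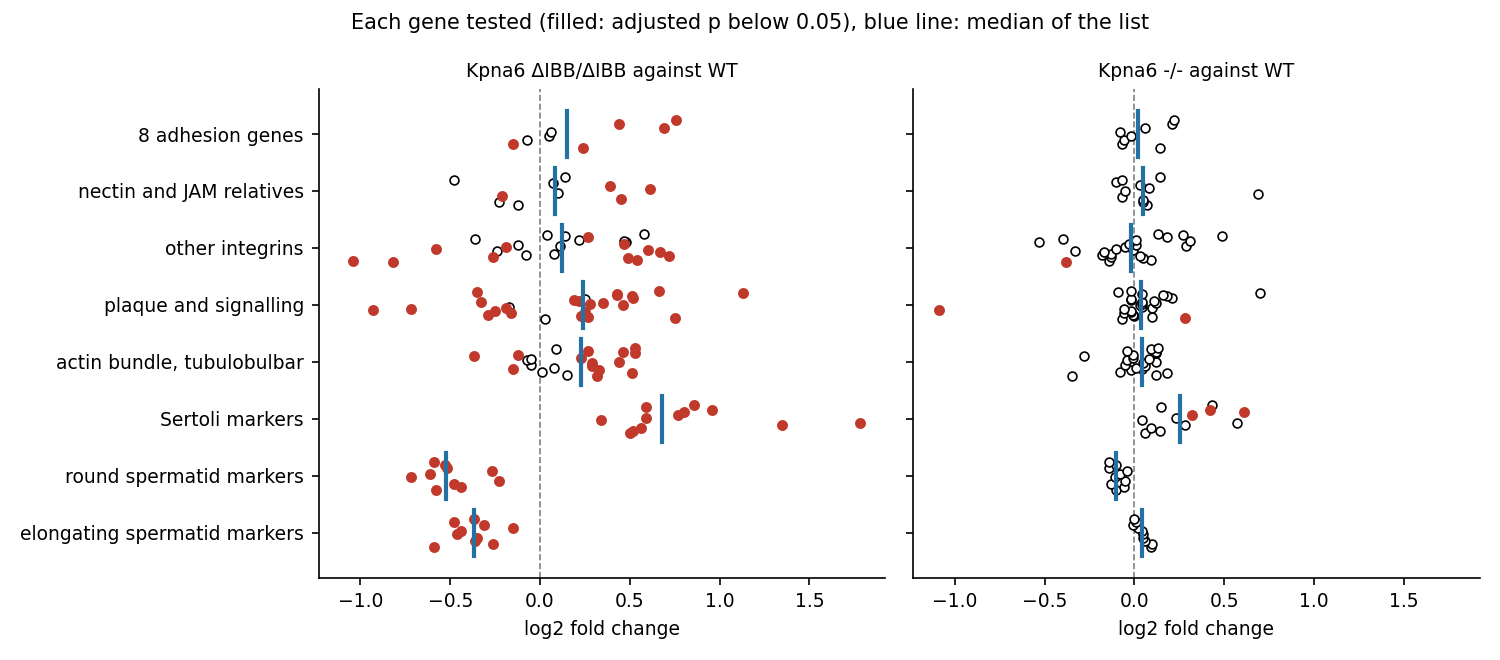
Log2 fold change (horizontal axis) of each gene tested in the 8 adhesion genes, the 4 lists of other junction genes and the Sertoli, round spermatid and elongating spermatid markers, in both comparisons with WT (filled points: adjusted p below 0.05, blue lines: medians). In *Kpna6* ΔIBB/ΔIBB testes the Sertoli markers lie to the right (median 0.68) and the spermatid markers to the left (-0.53 and -0.37), and the adhesion genes range from -0.15 to 0.76.

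Other genes of the junction were taken as 4 lists. Of 10 tested relatives of nectins and JAMs, 3 were higher and 1 was lower in *Kpna6* ΔIBB/ΔIBB than in WT testes, with a median log2 fold change of 0.09. The share called was near that of all genes (36.6%). *F11r* (0.61, adjusted p = 0.000286 by edgeR) and *Jam2* (0.39, adjusted p = 0.0037) encode JAM-A and JAM-B, the latter being the partner of Jam3, and *Pvr* (0.45, adjusted p = 0.00523) encodes a nectin-like receptor. *Cadm2* (-0.21, adjusted p = 0.0407) was lower, a call lost without any 1 of WT replicates 1 and 2 and of the 3 *Kpna6* ΔIBB/ΔIBB replicates (highest adjusted p = 0.124). *Jam2* had 32.29, 28.78 and 28.53 CPM in WT and 43.15, 39.42 and 34.87 CPM in *Kpna6* ΔIBB/ΔIBB testes. Its call was lost with limma on log2 TPM values and with counts rebuilt from TPM, and the log2 fold change of its partner *Jam3* was 0.06.

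Of 24 other integrin subunits, 7 were higher and 5 lower (median 0.12), against 17.7% and 18.9% of all genes, so the share that fell was near that of all genes. *Itga9* (0.67, adjusted p = 0.00251 by edgeR), *Itga2b* (0.54, adjusted p = 0.0125) and *Itgb5* (0.27, adjusted p = 0.0207) were higher, and *Itga1* (-0.82, adjusted p = 1.75e-05), *Itgad* (-0.58, adjusted p = 0.00121) and *Itga4* (-0.26, adjusted p = 0.00753) were lower. *Itga1*, the alpha subunit of a collagen receptor, had 44.75, 48.69 and 50.5 CPM in WT, 25.99, 26.09 and 29.23 CPM in *Kpna6* ΔIBB/ΔIBB and 34.83, 37.06 and 38.42 CPM in *Kpna6*-/- testes, with no overlap between genotypes. It therefore fell where its partner subunit *Itgb1* rose. Several of these calls depended on the setting. *Itga9* was at 0.01 (adjusted p = 0.961) with counts rebuilt from TPM and at 0.1 (adjusted p = 0.603) with limma on log2(TPM + 1), and *Itga2b* at 0.39 (adjusted p = 0.15 by edgeR) with protein coding transcripts alone. With limma *Itgad* was at -0.26 (adjusted p = 0.103) and *Itga4* at -0.12 (adjusted p = 0.345), and *Itga4* was at -0.16 (adjusted p = 0.0615 by edgeR) with library size scaling. *Itgb5* lost its call with limma and with counts rebuilt from TPM, and also without WT replicate 2 or 3 or *Kpna6* ΔIBB/ΔIBB replicate 1 or 2 (highest adjusted p = 0.0791).

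The junction plaque and its signalling proteins changed in both directions. Of 26 such genes, 15 were higher and 8 lower (median 0.24), against 17.7% and 18.9% of all genes. *Ctnna1* (alpha-catenin, 0.75, adjusted p = 1.39e-05 by edgeR), *Tln1* (talin, which ties integrins to actin, 0.43, adjusted p = 6.65e-05) and *Lamc3* (0.66, adjusted p = 7.35e-05) were higher. *Lamc3* encodes the laminin gamma chain of the spermatid side and had 38.27, 32.08 and 37.49 CPM in WT and 57.79, 53.03 and 58.93 CPM in *Kpna6* ΔIBB/ΔIBB testes. *Ssx2ip* (-0.25, adjusted p = 0.000193), an afadin-binding protein, and *Ptk2* (focal adhesion kinase, -0.33, adjusted p = 0.000383) were lower. *Tln1* lost its call with counts rebuilt from TPM and *Ptk2* with limma.

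Among 21 genes of the actin bundles and of the tubulobulbar complexes, by which the junction is taken apart, 11 were higher and 3 lower (median 0.23), against 17.7% and 18.9% of all genes. *Cttn* (cortactin, 0.44, adjusted p = 8.53e-05 by edgeR), *Lasp1* (0.53, adjusted p = 0.000207) and *Pfn1* (profilin, 0.46, adjusted p = 0.000216) were higher. *Palld* (palladin, -0.37, adjusted p = 0.00753), *Rai14* (-0.12, adjusted p = 0.0137) and *Actn4* (-0.15, adjusted p = 0.0185) were lower. *Palld* lost its call with limma and with counts rebuilt from TPM, and *Rai14* with limma and with library size scaling. *Rai14* also lost it without *Kpna6* ΔIBB/ΔIBB replicate 2 or 3 (highest adjusted p = 0.0629) and *Actn4* without replicate 2 (0.0713), and *Actn4* turned to 0.33 (adjusted p = 0.0011) where protein coding transcripts alone were summed. Of the 22 genes that the naming rule took from the 4 lists in this comparison, 18 passed with each library left out in turn and 10 passed in every alternative.

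In *Kpna6*-/- against WT, 0 of 11 nectin and JAM relatives and 0 of 21 actin genes passed edgeR's test (0 and 4 at an unadjusted p below 0.05). Of 24 integrin subunits 1 passed, and of 26 plaque genes 2 passed, against 1.6% of all 18681 genes tested. *Itga1* was lower (-0.38, adjusted p = 0.0086) and *Ctnna1* higher (0.28, adjusted p = 0.0214), but *Itga1* lost its call without *Kpna6*-/- replicate 1 or 2 (highest adjusted p = 0.0685) and *Ctnna1* without *Kpna6*-/- replicate 1 or 2 or WT replicate 2 or 3 (0.13). Both calls were also lost with limma and with counts rebuilt from TPM. The other plaque gene was *Lmo7*, an afadin-binding protein named after its values were seen. It had 6.113, 4.912 and 8.375 CPM in WT, 3.555, 2.741 and 3.842 CPM in *Kpna6* ΔIBB/ΔIBB and 3.472, 2.988 and 2.654 CPM in *Kpna6*-/- testes, lower in every mutant testis than in every WT testis. Its log2 fold change was -1.09 (SE 0.19, adjusted p = 0.0155) in *Kpna6*-/- and -0.93 (SE 0.2, adjusted p = 0.00449) in *Kpna6* ΔIBB/ΔIBB against WT, and the first of these calls was lost without any 1 of the *Kpna6*-/- replicates (highest adjusted p = 0.0825). Both *Lmo7* calls were lost with counts rebuilt from TPM (adjusted p = 0.189 and 0.0914), as they were by limma at a pseudocount of 1 (0.306 and 0.232).

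The same lists were compared between the mutant lines. In *Kpna6* ΔIBB/ΔIBB against *Kpna6*-/-, 3 of 11 nectin and JAM relatives were higher and 1 lower, 7 of 24 integrin subunits were higher and 4 lower, 14 of 26 plaque genes were higher and 5 lower, and 11 of 21 actin genes were higher and 2 lower. Of all genes 13.5% were higher and 16.8% lower, and the share of integrin subunits that were lower was near the latter. Genes named here and not above were *Prkci* (0.42, adjusted p = 0.000158 by edgeR) and *Eps8* (0.66, adjusted p = 2.17e-05), an actin-bundling protein, which were higher, and *Nectin4* (-0.29, adjusted p = 0.00352), *Sorbs3* (vinexin, -0.3, adjusted p = 0.000211) and *Itgae* (-0.16, adjusted p = 0.0213), which were lower. *Nectin4* and *Sorbs3* lost their calls with limma, and *Itgae* with limma, library size scaling and counts rebuilt from TPM. *Itgae* also lost it without *Kpna6*-/- replicate 1 or 2 or *Kpna6* ΔIBB/ΔIBB replicate 1 or 2 (highest adjusted p = 0.0813).

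For each of the 8 genes, the gene with the most similar profile over the 9 samples was sought among 11701 genes with a mean of at least 5 TPM, by the root mean square difference of centred log2 CPM values. *Espn* was closest to *Acsl4* (0.067, where its own spread about its mean was 0.34) and *Itga6* to *Smarca1* (0.037, own spread 0.328). *Itgb1* was closest to *Slc25a1* (0.039, own spread 0.19) and *Nectin2* to *Sptlc1* (0.028, own spread 0.121). For *Acsl4* the values were 23.2, 24.0 and 20.4 CPM in WT, 41.0, 39.5 and 36.9 CPM in *Kpna6* ΔIBB/ΔIBB and 30.5, 28.5 and 26.0 CPM in *Kpna6*-/- testes. The genes that varied less had partners at small distances as well, *Nectin3* with *Eif3e* (0.02, own spread 0.063), *Jam3* with *Gspt1* (0.041, own spread 0.085), *Afdn* with *Ift140* (0.017, own spread 0.049) and *Cadm1* with *Nr2c1* (0.019, own spread 0.041). These distances describe 9 samples that share 3 genotypes.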

How the data were processed

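Poly(A) RNA of 9 whole testes was sequenced, and the authors deposited, for each sample, estimated counts and TPM per transcript from kallisto 0.45 (as named in the submitters' processing notes, with build mm10). Which release the transcripts came from is not given in the sources used here. Of 96626 transcripts, 95301 were matched to 32035 genes of GENCODE M21 and 1325 were not, and between 99.54% and 99.56% of the counts of a sample fell on genes. Estimated counts and TPM were summed per gene, and summed counts were rounded.

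For each pair of genotypes, 6 samples were fitted in edgeR 4.0.16 (R 4.3.3) with its default filter on low counts, TMM factors and the quasi-likelihood test, and p-values were adjusted by Benjamini-Hochberg over all genes or transcripts tested. A call is an adjusted p below 0.05. The SE is the absolute log2 fold change divided by the square root of F. The script was tested on simulated data. The alternatives were DESeq2 1.42.0, no filter, at least 10 counts in every sample, library size alone, RLE factors, all 9 samples in 1 fit, a replicate block, limma 3.58.1 on log2(TPM + 1) and log2(TPM + 0.1), counts rebuilt from TPM and length, protein coding transcripts alone, and each library left out. Single values were compared by exact permutation tests over samples. The labels do not say that the samples of a group came from different animals, and they name no batch, so p-values measure the spread between these samples.

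The text names, beside the 8 genes and *Kpna6*, up to 3 genes per direction of each junction list in each comparison (smallest p, at least 5 TPM in a genotype), the closest profile of each gene and the first 3 markers of the Sertoli, round spermatid and elongating spermatid lists. 1 gene that this rule takes is not reported here. The genes and lists were chosen with earlier results of these data known. Sequences came from RefSeq (GRCm38.p6) and the GENCODE M21 transcripts, and the promoter table used here was not matched by *Cadm1*, *Jam3* and *Itga6*. Shared sequence was sought with blastn 2.17.0 (at least 95% identity over 100 bases). Python 3.11.15, pandas 2.3.3, numpy 2.4.6 and matplotlib 3.10.9 were used.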

Additional observations from a re-analysis of the deposited data

How the results depend on the processing

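With 3 samples per group, small changes rest on single libraries. *Espn* and *Itgb1* kept their direction and call in all 17 alternatives, in *Kpna6* ΔIBB/ΔIBB against both WT and *Kpna6*-/-, and so did *Itga6* against WT. Between 4 and 5 of the 8 genes were called against WT with a library left out, 0 in *Kpna6*-/- against WT and 3 to 5 between the mutant lines, where counts rebuilt from TPM called 2 in place of 4. Transcript calls fell from 8 to between 3 and 7 against WT and from 6 to between 3 and 5 between the mutant lines with a library left out. In *Kpna6*-/- against WT, 18681 genes gave 299 calls (166 higher, 133 lower), while 15 genes were higher and 17 lower by limma with a pseudocount of 1, 39 higher and 31 lower with counts rebuilt from TPM, and 349 higher and 275 lower without a filter. By the same limma test the comparison of *Kpna6* ΔIBB/ΔIBB with WT gave 3925 genes higher and 1622 lower, and 3794 higher and 1330 lower between the mutant lines.

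The sign of *Afdn* turned in *Kpna6* ΔIBB/ΔIBB against WT with counts rebuilt from TPM (0.03), library size (0.03) and limma with either pseudocount (0.14 and 0.14), in *Kpna6*-/- against WT with counts rebuilt from TPM (0.02) and limma (0.01 and 0.01), and between the mutant lines with counts rebuilt from TPM (0.01), library size (0.07) and limma (0.13 and 0.13). *Nectin3* between the mutant lines turned with library size (0.01) and limma (0.05 and 0.05). *Itga6* in *Kpna6*-/- against WT ranged from -0.02 to 0.16 with a library left out and reached 0.41 with counts rebuilt from TPM. With limma, *Actn4* (0.03 and 0.03), *Cadm2* (0.05 and 0.04) and *Rai14* (0.0 and 0.0) turned against WT and *Rai14* (0.02 and 0.02) between the mutant lines. With protein coding transcripts alone *Actn4* turned to 0.33 against WT and 0.24 between the mutant lines. The cause was not tested.

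Replicate numbers carried no stated pairing, so samples were not taken as pairs. Deviations of same-numbered samples from their group means correlated at 0.02, 0.17 and 0.06 in *Kpna6* ΔIBB/ΔIBB against WT. Differently numbered samples lay between -0.2 and 0.11 there. Between the mutant lines the values were -0.04, 0.1 and 0.18, against -0.18 to 0.11. In *Kpna6*-/- against WT they were -0.06, 0.05 and 0.03, against -0.07 to 0.04. The highest same-numbered value thus lay above the range of the others in all 3 comparisons. The replicate block gave 5, 0 and 3 called genes in the 3 comparisons, losing *Nectin3* between the mutant lines (adjusted p = 0.0535 by edgeR), and 5 in place of 8 transcripts against WT.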
